A study of Mus musculus with 3 samples.

Results

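The common regions described here are NBS1 peaks of the mouse line AH2 that lay on an NBS1 peak of a further line, R2K.Artm, and also on a peak of the AH2 input, the chromatin that no antibody had selected. They were chosen from the deposited AH2 NBS1 list by an overlap of at least 1 base with a peak in each of the other lists. Unplaced sequences, chrX, chrY and chrM, positions below 5 Mb, and windows around the immunoglobulin heavy chain locus (chromosome 12, 114 to 118 Mb) and kappa locus (chromosome 6, 67 to 71 Mb) were left out. This gave 779 regions of the 4351 AH2 NBS1 peaks that passed the position filter, 17.9% (95% Wilson interval 16.8 to 19.1%), out of 5201 AH2 NBS1 peaks in all. The choice used measured values, namely the presence of a called peak in all 3 libraries, so the overlap itself is a description and was not tested.

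ChIP-seq with a rabbit monoclonal antibody against NBS1 was done in AH2 and in R2K.Artm, both of them v-Abl-transformed pre-B lines, and the input came from AH2 alone. The labels give neither a genotype nor a treatment for either line. They describe fixation in 1% formaldehyde for 5 min, sonication to an average of 250 bp and 5 µg of antibody. Each of the 3 groups has 1 library, which leaves no spread between replicates to test a difference against, and no p-value is given. Intervals on shares cover counting error only, and they treat peaks as independent, which neighbouring peaks are not.

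NBS1 works together with MRE11 and RAD50 in a complex that holds broken DNA ends and helps to activate the ATM kinase. In developing lymphocytes such breaks are made by the RAG1/2 recombinase at antigen receptor genes, and the study's title asks about breaks at other loci. An input library shows where sheared and sequenced chromatin gives more reads than its surroundings without any antibody. Assembled mouse chromosomes are known to hold stretches of this kind, such as copies of satellite, ribosomal or mitochondrial DNA that stand in the assembly for sequence present many times in the cell. The sequence under the common regions was not analysed here, because no genome of the build used by the authors (mm9) was at hand, so the regions are named by position and no sequence or gene is printed. Positions are 1-based in mm9.

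The common regions held most of the highest scores of the AH2 NBS1 list. A region had to be a called peak in each list, and such a rule can itself favour high scores. The score is the value deposited with each peak, has a minimum of 50, and was ranked here only within a list. Scores from different lists that are printed side by side are not compared as amounts. Among the 779 regions the lowest AH2 NBS1 score was 50.4, the median was 167 and the highest was 3104 (quartiles 99.6 and 412). A score of at least 100 was reached by 580 of them, 74.5%, against 24.1% of all filtered AH2 NBS1 peaks. AH2 NBS1 peaks that lay on R2K.Artm NBS1 but not on input numbered 544 and had a median of 88.0, with a maximum of 498. The 313 that lay on input but not on R2K.Artm NBS1 had a median of 70.8, and the 2715 that lay on neither had 58.4. All 48 AH2 NBS1 peaks with a score of 800 or more were common regions, and at 400 or more there were 202 common regions and 6 other peaks. The score distributions of the 4 classes overlapped, and each class began near 50. A score of at least 100 was also reached by 215 of the 544, 64 of the 313 and 189 of the 2715. The highest of the 313 scored 759.

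**Figure D1:**
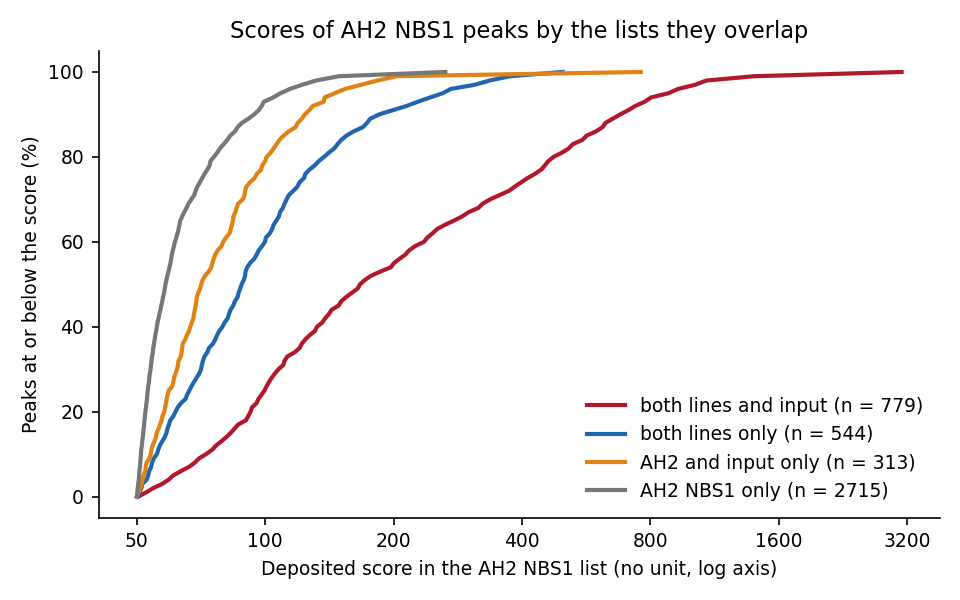
Cumulative share of AH2 NBS1 peaks (vertical axis, percent) at or below a deposited score (horizontal axis, log scale, no unit), by the lists each peak overlapped. The 779 common regions reach far higher scores (median 167) than the 544 in both lines only (88.0), the 313 in AH2 and input only (70.8) and the 2715 in AH2 NBS1 only (58.4).

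The regions led the other lists as well, under a rule that asks for a called peak in each of them. How far the rule alone gives this lead was not tested. Of the 2639 filtered R2K.Artm NBS1 peaks, 766 touched a common region, 29.0% (27.3 to 30.8%), and of the 10536 filtered AH2 input peaks 772 did so, 7.33% (6.85 to 7.84%). The R2K.Artm NBS1 peaks at common regions had a median score of 148 within their list, against 59.4 for the others. The input peaks at common regions had a median of 186 within theirs, against 58.5. Among the 100 highest-scoring peaks, common regions took 99 in AH2 NBS1, 100 in R2K.Artm NBS1 and 98 in the input. In the 400 highest the numbers were 346, 361 and 348, and in the 1600 highest 675, 713 and 620. The first AH2 NBS1 peak by score that was not a common region stood at rank 58, with a score of 759, at chr18:43135374-43135836. It overlapped an input peak that was the first outside the common regions in the input list too, at rank 22. In R2K.Artm NBS1 the first was at rank 166, at chr2:125973609-125973691, with a score of 419.

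**Figure D2:**
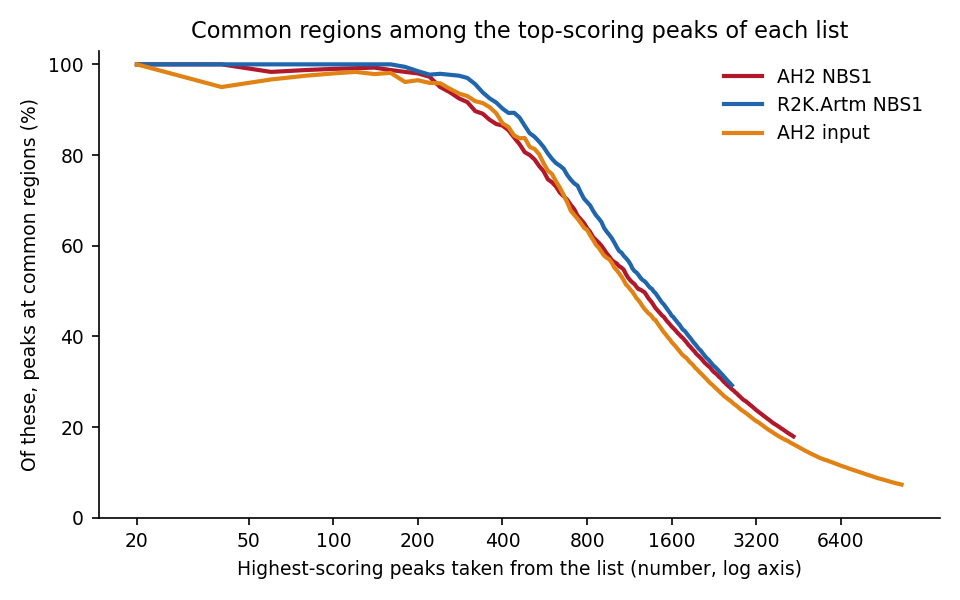
Share of peaks that are at common regions (vertical axis, percent) among a rising number of the highest-scoring peaks of each list (horizontal axis, log scale). All 3 lists stay above 90% for the first 200 peaks and fall to 42.2% (AH2 NBS1), 44.6% (R2K.Artm NBS1) and 38.8% (input) at 1600.

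The overlaps that define the regions were counted singly and jointly. An R2K.Artm NBS1 peak lay on 30.4% of the filtered AH2 NBS1 peaks and an AH2 input peak on 25.1%, and the 17.9% with both are the common regions. An input peak was found under 779 of the 1323 AH2 NBS1 peaks that lay on R2K.Artm NBS1, 58.9% (56.2 to 61.5%), and under 313 of the 3028 that did not, 10.3% (9.30 to 11.5%). Higher scores went with both overlaps, so the shares were also taken within bands of the AH2 NBS1 score. From 50 to 75 they were 30.7% (25.6 to 36.3%) of 280 peaks with an R2K.Artm NBS1 peak and 7.35% (6.36 to 8.49%) of 2325 without. From 100 to 150 they were 55.8% (50.0 to 61.5%) of 283 and 23.9% (18.7 to 30.1%) of 213. The intervals stayed apart in each band up to a score of 400, although from 200 to 400 only 8 peaks lacked an R2K.Artm NBS1 peak, and at 400 or more only 1 did. These overlaps chose the regions, so the shares and intervals are a description, and nothing further is read from them.

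**Figure D3:**
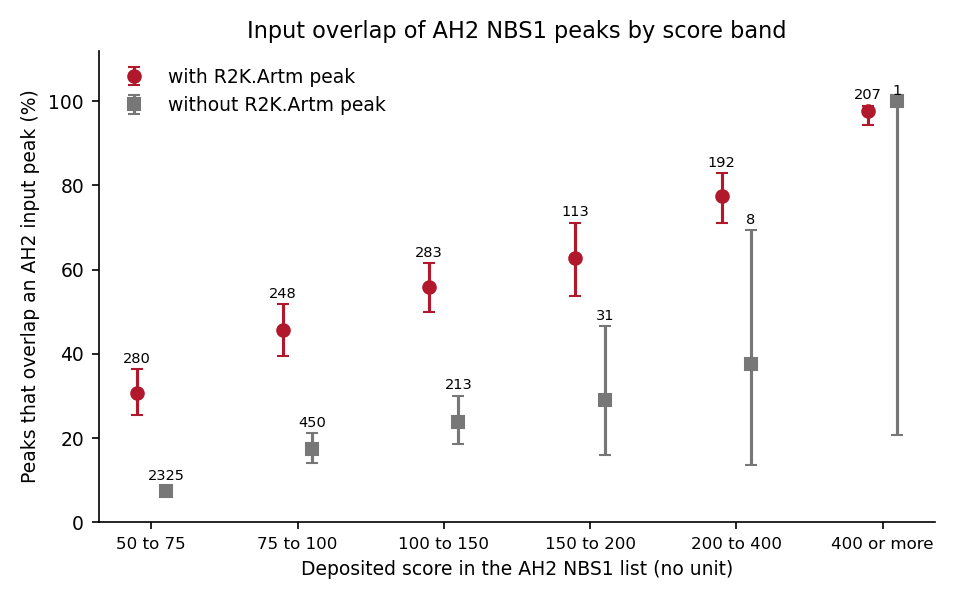
Share of AH2 NBS1 peaks that overlap an AH2 input peak (vertical axis, percent) in bands of their score (horizontal axis), for peaks with an R2K.Artm NBS1 peak (circles, the common regions among them) and without (squares). Bars are 95% Wilson intervals, and the number over each point is the count of peaks. Circles lie above squares in the first 5 bands, by 30.7 against 7.35% in the lowest.

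Several regions reached the top of all 3 lists. The region with the highest AH2 NBS1 score, chr2:98502310-98503159, had scores of 3104 in AH2 NBS1, 3005 in R2K.Artm NBS1 and 3100 in input. Its neighbour chr2:98506380-98507505 and the region chr9:35112788-35113190 had 3100 in each list. The region chr6:103599032-103599299 had 3100 in both NBS1 lists and 3040 in input. A score of 3100 recurred as a tie in each list, and the tied regions share a rank there. Next came chr15:74916668-74917523, with scores of 2428 in AH2 NBS1, 1843 in R2K.Artm NBS1 and 2695 in input. It stood at rank 5 of the 779 in both NBS1 lists and at rank 6 in input.

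Further regions completed the 10 highest by AH2 NBS1 score. The region chr13:77578154-77578332 had scores of 2196, 1586 and 2223 in AH2 NBS1, in R2K.Artm NBS1 and in input. The region chr4:70039101-70039305 had 1774, 1456 and 1737 in the same order. Both kept a place among the 12 highest of the 779 in every list. The region chr14:86598786-86598957 had 1522, 1522 and 1063, and was at rank 8 in AH2 NBS1 and rank 32 in input. The last were chr2:57481815-57482184, with 1366, 1340 and 1396, and chr9:24346442-24346682, with 1343, 1497 and 1481. All 10 were among the 32 highest of the 779 in the library without antibody, with the region on chromosome 14 the lowest there.

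The highest region of each remaining chromosome was spread over a wide range of AH2 NBS1 scores. It was chr12:75905120-75905499 (1263), chr1:195053998-195054125 (1076), chr3:5860338-5860738 (1071), chr8:86280642-86280919 (1070) and chr17:68090686-68090887 (1048). Below these were chr16:35981630-35981931 (1009), chr5:37051894-37052476 (985), chr18:44244950-44245065 (946) and chr11:36692702-36692884 (882). The last were chr10:22167976-22168274 (859), chr19:50385082-50385206 (716) and chr7:93955091-93955205 (392). Chromosome 7 stood lowest: its leading region was at rank 205 of the 779.

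The order of the regions by score was similar in the 3 lists. Spearman's rho over the 779 regions was 0.85 between AH2 NBS1 and R2K.Artm NBS1, 0.77 between AH2 NBS1 and input and 0.80 between R2K.Artm NBS1 and input. These describe 1 library each, over regions that share their sequence and any multiplicity in the assembly, and AH2 NBS1 shares its cell line with input. Over the 724 regions that met 1 peak in each list, shared with no other region, the values were 0.87, 0.81 and 0.82. Over the 257 with an AH2 NBS1 score of 300 or more they were 0.83, 0.78 and 0.75, over the 165 from 150 to 300 they were 0.43, 0.40 and 0.60, and over the 357 below 150 they were 0.27, 0.15 and 0.28. The bands differ widely in their range of scores, which itself changes rho, so they give no order of likeness. The 544 AH2 NBS1 peaks on R2K.Artm NBS1 but not on input gave 0.35 between the lines, over a narrower range of scores. The 313 on input but not on R2K.Artm NBS1 gave 0.084 between AH2 NBS1 and input, also over a narrower range of AH2 NBS1 scores. Of the 100 highest regions by AH2 NBS1 score, 81 were also among the 100 highest by R2K.Artm NBS1 score and 67 among those by input score, and 60 were so in all 3.

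**Figure D4:**
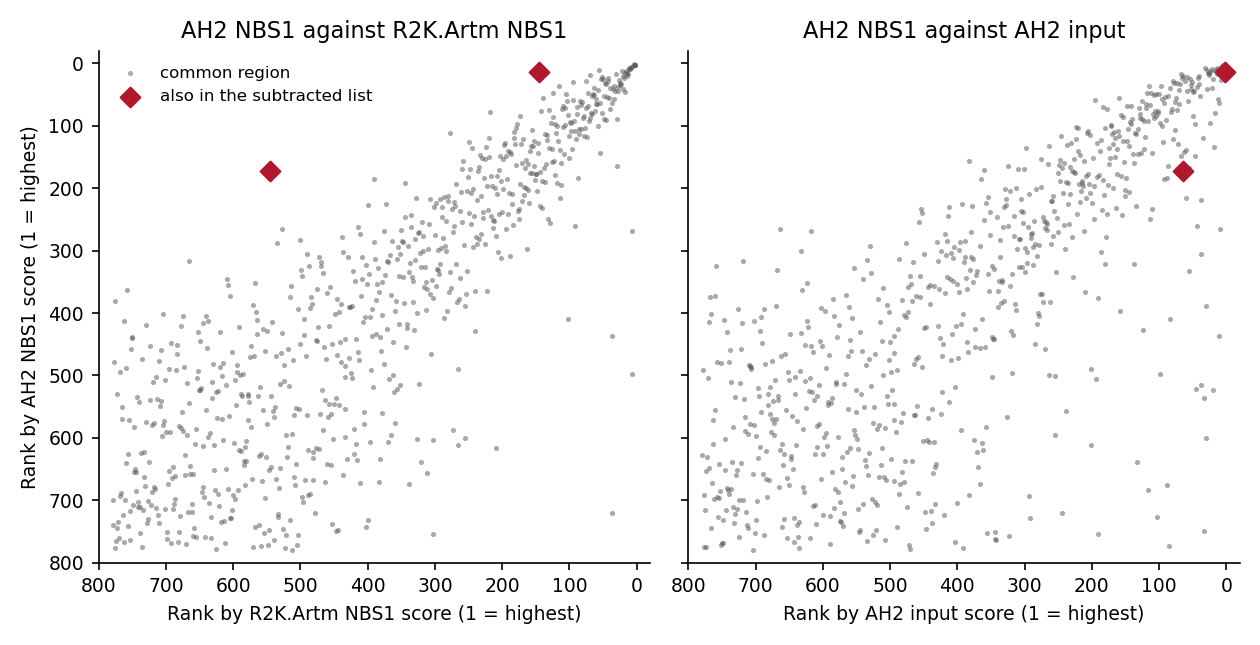
Rank of each of the 779 common regions by AH2 NBS1 score (vertical axes) against its rank by R2K.Artm NBS1 score (left) and AH2 input score (right), with 1 the highest and at the upper right. Points close up toward the upper right, and the 2 regions that are also in the subtracted list (diamonds) rank far lower in R2K.Artm NBS1 (145 and 545) than in AH2 NBS1 (14 and 172).

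A minority of regions changed place between the lists. Ranks in AH2 NBS1 and input differed by more than 300 places for 50 of the 779, of which 36 ranked higher in input and 14 higher in AH2 NBS1. The largest differences toward input were at chr6:9839950-9840080, with an AH2 NBS1 score of 58.6 and an input score of 1035, at chr11:18232087-18232218, with 52.3 and 719, and at chr8:27080203-27080434, with 64.6 and 663. Their ranks among the 779 were 749, 773 and 727 in AH2 NBS1, and their R2K.Artm NBS1 scores of 125, 95.8 and 101 gave ranks of 447.5, 558 and 534 there. The first of them shares its input peak, and its R2K.Artm NBS1 peak, with the neighbouring region chr6:9840083-9840158, which scored 111 in AH2 NBS1. Toward AH2 NBS1 the largest were at chr9:13338809-13339389 (222 in AH2 NBS1, 117 in R2K.Artm NBS1 and 54.6 in input), chr16:33001991-33002107 (230, 70.3 and 59.2) and chr11:53453295-53453352 (291, 101 and 76.7). Even these had an AH2 NBS1 score under 300. Between AH2 NBS1 and R2K.Artm NBS1, ranks differed by more than 300 places for 26 regions, 17 of them higher in R2K.Artm NBS1. Examples chosen after their values were seen are chr7:127897517-127897759, with 190.3 in AH2 NBS1 and 55.4 in R2K.Artm NBS1, and chr18:82390488-82390571, with 57.6 and 219. The latter is 1 of 3 regions on the same R2K.Artm NBS1 peak, the highest of which scored 176 in AH2 NBS1.

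At the low end, the 5 lowest AH2 NBS1 scores were 50.4 at chr19:50739411-50739522, 50.6 at chr3:28364949-28365075, 50.8 at chr13:91576315-91576422, 51.5 at chr2:90235220-90235367 and 51.6 at chr4:103349297-103349419. Their R2K.Artm NBS1 scores lay between 52.3 and 106 and their input scores between 50.3 and 188. These regions were therefore near the calling limit in AH2 NBS1 and above it by varying amounts elsewhere.

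The peaks of the 3 libraries were nearly centred on each other. The required overlap by itself limits how far apart the midpoints of narrow peaks can lie. The median width of the common regions was 126 bp in AH2 NBS1, 149 bp for the R2K.Artm NBS1 peaks on them and 131 bp for the input peaks (where a region met several peaks of a list, the highest-scoring was used). The distance between peak midpoints had a median of 20 bp from AH2 NBS1 to R2K.Artm NBS1 and 17 bp from AH2 NBS1 to input. It was at most 50 bp for 690 regions, 88.6% (86.1 to 90.6%), and for 687, 88.2% (85.7 to 90.3%). For peaks in both lines but not in input the distance between the lines had a median of 19.5 bp, and it was at most 50 bp for 90.8% (88.1 to 93.0%). By midpoint distance the lines lay about equally close with and without an input peak, and no difference was tested. The distances were also taken in bands of the AH2 NBS1 score: 50 to 150, 150 to 300, 300 to 800, and 800 or more. In this order the median distance to input was 20, 17, 15.5 and 9.5 bp, the last over 48 regions. To R2K.Artm NBS1 it was 21.5, 22.5, 17.5 and 12.75 bp. The share within 50 bp of input was 87.7, 84.8, 89.5 and 97.9%, so it did not rise at each step.

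One peak often lay wholly inside the other. The AH2 NBS1 peak lay wholly inside the R2K.Artm NBS1 peak for 377 of the 779 regions, 48.4%, and the R2K.Artm NBS1 peak lay inside that of AH2 NBS1 for 75, 9.63%. Against input the numbers were 239, 30.7%, and 179, 23.0%. For the 544 peaks in both lines but not in input, the numbers against R2K.Artm NBS1 were 212, 39.0%, and 70, 12.9%. For the 313 peaks on input but not on R2K.Artm NBS1, the numbers against input were 100, 31.9%, and 71, 22.7%, close to those of the common regions. No difference between the classes was tested. No region had the same start and end in AH2 NBS1 and either other list. More than 500 bp were spanned by 22 regions, 2.82%, and by 16 of the 3572 other filtered AH2 NBS1 peaks, 0.448%. A wide peak has more bases on which to meet another, so the rule itself can favour width. In all, the regions covered 137278 bp, 24.1% of the bases in the filtered AH2 NBS1 list.

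The 3 widest regions differed in how far their extent recurred in the other lists. The widest, chr1:24618368-24623076, spanned 4709 bp in AH2 NBS1, 4715 bp in R2K.Artm NBS1 and 4736 bp in input. Its scores were 64.1 in AH2 NBS1, 81.5 in R2K.Artm NBS1 and 279 in input. The next, chr10:7232155-7235318, spanned 3164 bp and had an AH2 NBS1 score of 122 and an input score of 107. It lay inside an R2K.Artm NBS1 peak of 6053 bp that scored 1722, rank 6 of the filtered R2K.Artm NBS1 list. The third, chr17:39982760-39985806, spanned 3047 bp in AH2 NBS1, 2614 bp in R2K.Artm NBS1 and 2541 bp in input, and scored 675 in AH2 NBS1, 785 in R2K.Artm NBS1 and 1461 in input. With the region chr17:39979932-39981237 beside it, which scored 525, 326 and 1448, it marks a stretch of 5875 bp. General knowledge of mm9, not a file used here, places an assembled copy of the 45S pre-ribosomal RNA gene in this megabase of chromosome 17 and a long insertion of mitochondrial DNA in the megabase of chromosome 1 from 24 Mb. Whether the regions coincide with them was not tested.

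Most common regions stood alone. Joining regions under 10 kb apart gave 726 sites, of which 683 held a single region and 43 held several, with 96 regions among them. Another common region lay within 10 kb of 12.3% of the regions (10.2 to 14.8%) and within 1 kb of 11.2% (9.14 to 13.6%), so nearly all close neighbours were within 1 kb. Peaks in both lines but not input had another peak of their own class within 10 kb and within 1 kb for 7.35% (5.45 to 9.86%) and 2.21% (1.27 to 3.82%). Close pairs can be pieces of 1 enriched stretch: 34 regions shared their R2K.Artm NBS1 peak with another region, and 29 shared their input peak.

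The sites with the most regions, 4 each, were both on chromosome 2. At chr2:98502310-98507505 the outer regions were those with scores above 3000, and between them lay chr2:98503784-98504262 (551 in AH2 NBS1, 281 in R2K.Artm NBS1 and 688 in input) and chr2:98505027-98505443 (319, 237 and 316). Each of the 3 lists had exactly 4 peaks across these 5196 bp, covering 2872 bp in AH2 NBS1, 3110 bp in R2K.Artm NBS1 and 2810 bp in input. At chr2:181663858-181665726 the 4 regions had AH2 NBS1 scores of 63.6, 111, 108 and 141, R2K.Artm NBS1 scores of 61.3, 165, 58.7 and 165, and input scores of 78.8, 91.9, 180 and 192. Here R2K.Artm NBS1 and input had 4 peaks each and AH2 NBS1 had 5, 1 of them not a common region, all at low scores.

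Other sites were divided differently between libraries. On chromosome 10, from 7229368 to 7237140, AH2 NBS1 had 3 peaks that covered 5638 bp and reached 286, R2K.Artm NBS1 had 2 that covered 7191 bp and reached 1722, and input had 4 that covered 5645 bp and reached 397. The covered length was thus nearly the same in AH2 NBS1 and input and longer in R2K.Artm NBS1. On chromosome 6, from 29697871 to 29699156, 3 AH2 NBS1 peaks (144, 738 and 67.4) lay on a single R2K.Artm NBS1 peak of 1276 bp, with a score of 868. Input had 2 peaks there and reached 1893. With 1 library a line, a difference between the lines and a difference between the libraries cannot be told apart.

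The regions were found on every autosome. Their share of the filtered AH2 NBS1 peaks was lowest on chromosome 15, 20 of 172 peaks or 11.6% (7.65 to 17.3%), and highest on chromosome 16, 40 of 164 or 24.4% (18.5 to 31.5%). On the other 17 autosomes the interval held the overall 17.9%. Chromosomes 15 and 16 were picked here as the extremes of 19. An AH2 NBS1 score of 300 or more was reached by 257 regions, 33.0%. The numbers were 19 of 33 on chromosome 14, 57.6% (40.8 to 72.8%), 17 of 33 on chromosome 17, 51.5% (35.2 to 67.5%), and 4 of 31 on chromosome 7, 12.9% (5.13 to 28.9%). On the other 16 autosomes the interval held 33.0%. Chromosomes 7, 14 and 17 were picked from the 19 because their intervals did not, and variation between chromosomes was not tested. The median score was 457 on chromosome 14, 322 on chromosome 17 and 113 on chromosome 7.

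**Figure D5:**
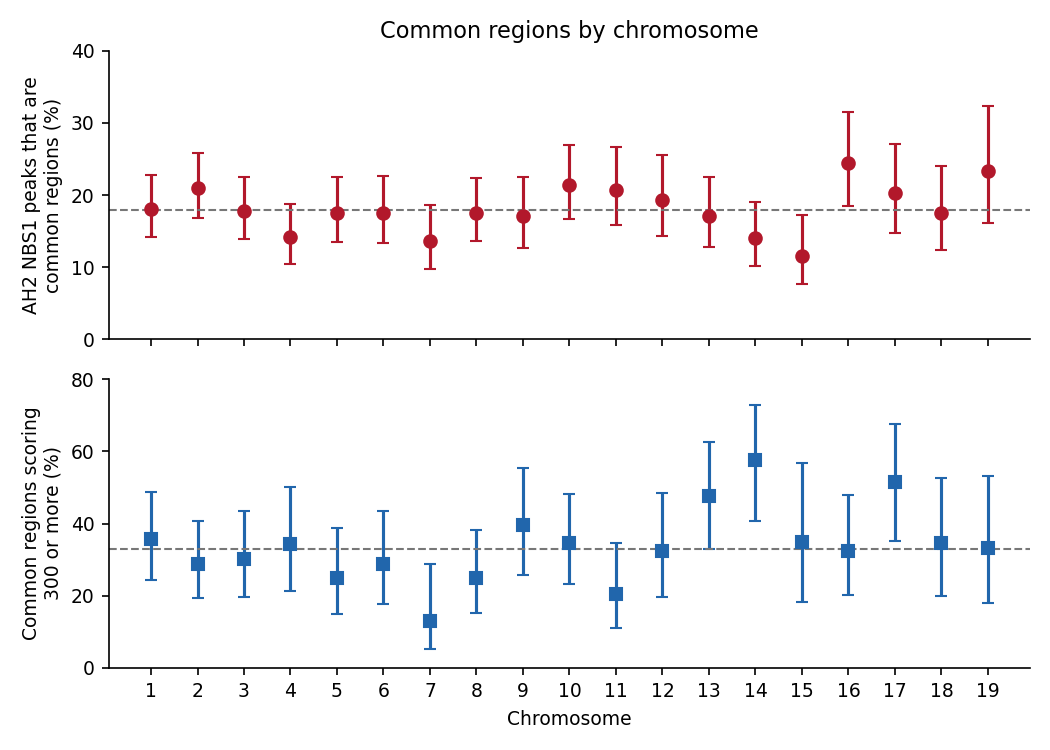
By autosome (horizontal axis), the share of filtered AH2 NBS1 peaks that are common regions (upper panel, percent) and the share of common regions with an AH2 NBS1 score of 300 or more (lower panel, percent). Bars are 95% Wilson intervals and dashed lines the values over all autosomes, 17.9% and 33.0%. Chromosomes 15 and 16 are the extremes above, and 7 and 14 below.

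Common regions were more frequent toward the distal ends of chromosomes. Within 2 Mb of the last base that any list covers on a chromosome lay 31 of the 779, 3.98% (2.82 to 5.59%), and 66 of the 3572 other filtered AH2 NBS1 peaks, 1.85% (1.46 to 2.34%). With peaks under 10 kb apart counted once, the shares were 3.72% (2.57 to 5.36%) and 1.71% (1.33 to 2.21%). Of the 31, 6 were on chromosome 2, 4 on each of chromosomes 17 and 19, and 3 on chromosome 1. AH2 NBS1 peaks on input but not on R2K.Artm NBS1 had 3.83% (2.21 to 6.58%) in these end stretches, and peaks in both lines but not in input had 2.21% (1.27 to 3.82%). Stretches of 1 and 5 Mb were also taken. Common regions had 2.44 and 7.57% there, and the other AH2 NBS1 peaks 1.06 and 4.03%. Peaks on input but not on R2K.Artm NBS1 had 2.88 and 7.03%, and peaks in both lines but not in input 1.47 and 3.31%. The sequence of these ends was not analysed here.

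The antigen receptor windows left in by the position filter held none of the regions. In whole-megabase windows taken from general knowledge of mm9 and chosen with the values in view, AH2 NBS1 had 3 peaks at Igl, 12 at Tcra/Tcrd, 2 at Tcrb and 3 at Tcrg, and 0 of them were common regions, at an overall share of 17.9%. Among the AH2 NBS1 peaks that the filter removed, 1 of 36 in the heavy chain window and 1 of 24 in the kappa window lay on both other lists. Of 41 filtered AH2 NBS1 peaks from 21 to 24 Mb of chromosome 13, a histone and tRNA gene cluster, none was a common region, and of 43 from 126 to 127 Mb of chromosome 8, which holds the 5S ribosomal RNA genes, 3 were. Their AH2 NBS1 scores were 77.8, 453 and 111. All these counts are small, and no difference from the overall share was tested.

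Over all the peaks that the filter removed the same coincidence was more frequent, but not in every part of them. Of the 850 AH2 NBS1 peaks that the filter removed, 318 lay on both other lists, 37.4% (34.2 to 40.7%). On unplaced sequences it was 208 of 334, 62.3% (57.0 to 67.3%), and below 5 Mb of the placed chromosomes 44 of 128, 34.4% (26.7 to 43.0%). On chrX, chrY and chrM it was 64 of 328, 19.5% (15.6 to 24.1%), an interval that held the 17.9% of the kept peaks. The heavy chain and kappa windows had 1 of 36 and 1 of 24.

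The authors' further AH2 list holds NBS1 peaks after a subtraction and kept 2 of the 779 regions, 0.257% (0.0704 to 0.931%). It held 18.6% of all filtered AH2 NBS1 peaks. Of those on R2K.Artm NBS1 but not on input it held 6 of 544, 1.10%. Of those on input but not on R2K.Artm NBS1 it held 57 of 313, 18.2%, and of those on neither 743 of 2715, 27.4%. By its name both the R2K.Artm NBS1 and the input signal were taken off, while its header line names R2K.Artm NBS1 alone. Either way the subtraction used a list that also chose the common regions, so a low share follows from how the list was made. The first of the pair, chr4:118219650-118221351, spanned 1702 bp in AH2 NBS1, 1705 bp in R2K.Artm NBS1 and 1743 bp in input. It scored 1126, 472 and 3100 in those lists, and 455 in the subtracted list. The other, chr15:36838469-36838919, scored 453 in AH2 NBS1, 98.1 in R2K.Artm NBS1 and 813 in input, and 173 in the subtracted list. Both had the same start and end in the AH2 NBS1 and subtracted lists. Both ranked higher in input (rank 64 of 779 for the region on chromosome 15, and a tie at the top for that on chromosome 4) than in R2K.Artm NBS1 (545 and 145). The AH2 input was thus no lower at these places than the AH2 NBS1 library, by rank among the regions.

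The limit of 1 shared base decided few cases. The region with the least overlap, chr11:17121429-17121516, shared 1 base with its input peak and 65 with its R2K.Artm NBS1 peak. Next were chr8:126071139-126071237, with 10 bases in input, chr11:78945236-78945347, with 11 in input, and chr13:74667297-74667767, with 16 in R2K.Artm NBS1, and no other region shared under 20 bases with its highest-scoring peak of a list. Just outside, chr9:77500756-77501034 was on input and 19 bp from an R2K.Artm NBS1 peak, and chr4:90059999-90060120 was in both lines and 26 bp from an input peak. In all, 17 of the 544 peaks in both lines were under 1 kb from an input peak, and 19 of the 313 on input were under 1 kb from an R2K.Artm NBS1 peak.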

How the data were processed

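The authors deposited peak lists with 1 score per peak, in BED format, and the analysis started from these. Tools named in the submitters' processing notes are Bowtie (version not given) and MACS 1.4.2, with the mm9 build. Which control each call used is not stated. Per the file headers the lists come from MACS, and the headers of both NBS1 lists name a setting, MFOLD4. The labels and headers say neither what the score measures nor how deeply each library was sequenced. Neither peak numbers nor scores were therefore compared between lists as amounts.

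Intervals were joined in Python 3.11.15 (numpy 2.4.6, pandas 2.3.3), 95% Wilson intervals came from scipy 1.17.1, and plots from matplotlib 3.10.9. The join was tested on simulated data. A region on several peaks of a list took the highest-scoring one. Ranks among the 779 regions share a place at ties. Regions and lists were chosen with earlier results of these data known. The regions named are the 10 highest by AH2 NBS1 score, the 5 highest in each other list, the highest of each chromosome, the 3 widest, the 5 lowest, the 3 largest groups under 10 kb apart, those in the subtracted list, and the 3 largest rank differences in each direction between AH2 NBS1 and input. The groups on chromosomes 6 and 17 and the megabase windows were picked after seeing the values. Alternatives were a larger overlap, peaks within 1 kb, higher scores, equal numbers of peaks and no position filter. No genome or annotation of mm9 was used here, so the planned look at sequence was not run.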

Additional observations from a re-analysis of the deposited data

How the results depend on the processing

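No paired analysis was possible because a single library stands for each group, which also means that none could be dropped. Over 34 results, 83 alternative values were computed, and 58 stayed within the 95% interval of the reported value and 25 did not. The 58 include every alternative share of a single chromosome, and these shares have intervals that are wide for their size. With those left out, more alternative values fell outside the interval than stayed within it. The share of AH2 NBS1 peaks that are common regions (17.9%) was 16.3% with at least 50% of the peak shared, 42.3% at scores of at least 100 in all lists, 38.9% when each list was limited to its 1319 highest scores and 21.1% with no position filter. The share of R2K.Artm NBS1 peaks was 22.3%, 63.4% and 33.2% under 50% sharing, scores of at least 100 and no filter, and that of input peaks 6.12%, 38.3% and 9.09%, with 7.91% within 1 kb. Input overlap of AH2 NBS1 peaks on R2K.Artm NBS1 was 55.2%, 81.0% and 64.3%, and of the others 11.7% within 1 kb, 14.4% at scores of at least 100 and 11.6% with no filter. At scores of at least 100 median widths were 138, 166 and 147 bp in AH2 NBS1, R2K.Artm NBS1 and input. Median scores were 384, 341 and 374 for regions with an AH2 NBS1 score of at least 150, an alternative chosen after seeing the data that raises them by construction. Another region lay within 100 kb of 19.0% of the regions, and within 10 kb of 9.48% at scores of at least 100, also added later. The sequence alternative was not run, as it needed mm9. For the other changes the cause was not tested. A place with no called peak may still hold reads, so absence from a list does not show absence of signal.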
